A study of Mus musculus with 3 samples.

Results

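A 200 kb stretch of mouse chromosome 8, at 71940001 to 72140000 of build mm9, was densely covered by FAIRE intervals. The stretch had empty gaps, the longest of them 9.13 kb at its right end and 7.37 kb inside. It held 271 of the 348759 intervals in the deposited list, and these intervals lay over 44.9% of its bases. The intervals were taken by their midpoints from a 1 Mb window around the stretch, at 71500001 to 72500000, which held 623 intervals. The Mb to its left (70500001 to 71500000) held 146 intervals and the Mb to its right (72500001 to 73500000) held 605. The length depends on how the stretch is delimited. With 10 kb bins, or with 20 kb bins at least 30% covered, the longest unbroken run was 80 kb. The first run of that length ended at 72020000, and a run as long followed to its right under both settings. With bins at least 30% covered, the later run lay at 72040001 to 72120000. The stretch was chosen for its coverage by intervals in these same data. The counts, coverage, widths and scores below therefore describe it and were not tested.

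In FAIRE, short for formaldehyde-assisted isolation of regulatory elements, cells are fixed and the DNA that formaldehyde crosslinks poorly to protein is kept. Such DNA is enriched for sites without nucleosomes, among them active promoters and enhancers, and these usually form short separate peaks of signal. Embryonic stem cells are known for chromatin that is open at many loci. F-Seq, the program named in the list, turns aligned reads into a smooth density along the chromosome and lists each interval where the density passes a threshold. A wide interval is therefore a place where the density stayed above that threshold without a break.

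The series holds 3 samples of wild type mouse embryonic stem cells on a 129Sv-C57Bl/6 background. The samples are FAIRE DNA from cells given 500 nM ICRF-193, a catalytic inhibitor of topoisomerase II, FAIRE DNA from cells given DMSO, and an input library of genomic DNA. Both treatments began at 32 h and ran for 16 h, and the cells were free of feeders. The titles of both FAIRE samples cover replicates 1 and 2 together, and the list names no sample, so it was read as 1 pooled list without replicates. No value below compares ICRF-193 with DMSO, and how many reads lie behind an interval is unknown.

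Coverage in the stretch stood far above that of the ground on both sides. The stretch had 1355 intervals per Mb (exact Poisson 95% interval 1198 to 1526, which covers counting error only), against 440 per Mb (395 to 488) in the other 800 kb of the window. Its coverage of 44.9% compared with 4.81% in the rest of the window, a ratio of 9.33, while the ratio of interval densities was 3.08. The stretch made up 20% of the window's length, and it held 43.5% of the window's intervals, 70.0% of its covered bases and 67.9% of its high-score intervals. High-score intervals were those in the top 10% of the whole list by score, at 0.0237 or more.

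The 10 bins of 20 kb that make up the stretch differed among themselves. From left to right, the 5 bins of its left side were covered for 53.4%, 38.5%, 44.4%, 48.7% and 26.3% of their bases. The 5 bins of its right side were covered for 39.7%, 80.8%, 49.9%, 41.9% and 25.6%. The most covered bin, at 72060001 to 72080000, stood above the other 9. The 2 least covered bins lay at 72020001 to 72040000 and at the right end.

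All 10 of these bins passed the 20% coverage that defined the stretch, against 0.675% of the 123620 autosomal bins of this size. The bins were chosen by that threshold, so nothing is read from the count. The least covered bin inside had 25.6% and the bins just outside had 7.81% on the left and 4.73% on the right. Among all autosomal bins, of which the median was 0.005% covered, the 10 bins ranked between 34 and 471. Bins were counted from the start of each chromosome, and 61898 of the 123620 held no interval, which lowers that median. Outside the stretch, 2 of the 140 bins of the window and its flanks reached 20%.

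Those 2 bins both lay in the right flank. The bin at 72520001 to 72540000 was 39.5% covered by 39 intervals, and the bin at 73400001 to 73420000 was 20.8% covered by 28. The most covered bin in the rest of the window, at 72280001 to 72300000, reached 16.3%, and that of the left flank reached 6.90%. Neither of the 2 right-flank bins had a neighbour above the threshold, so each stood as a single bin.

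**Figure D1:**
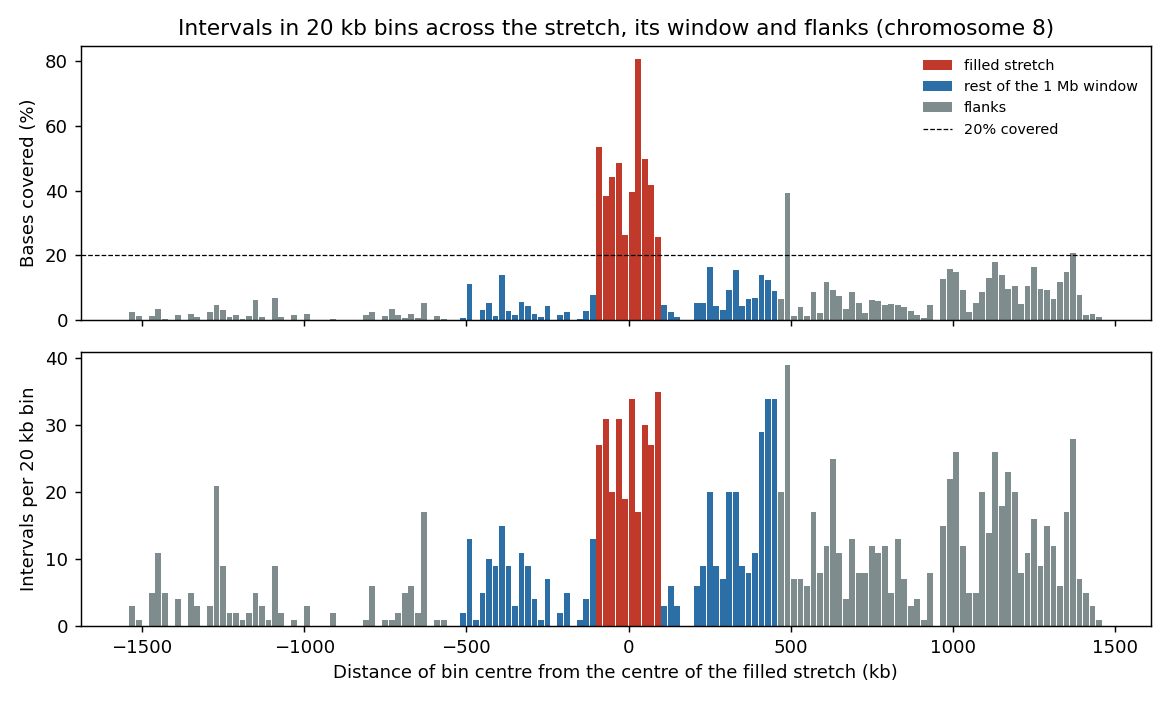
Bases covered by intervals in percent (upper panel) and number of intervals (lower panel) in 20 kb bins, by distance in kb from the centre of the filled stretch. Each of the 10 bins of the stretch is between 25.6% and 80.8% covered, while the counts of the stretch, 17 to 35 per bin, are matched by bins to its right.

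The number of intervals per bin did not set the stretch apart as clearly as coverage did, but coverage is what it was chosen for. Bins of the stretch held 17 to 35 intervals with a median of 28.5, against a median of 7 and a highest count of 34 in the rest of the window, 1.5 and 21 in the left flank, and 11 and 39 in the right flank. The most covered bin of the stretch held the fewest intervals, 17. Their median width was 681 bp and 13 of them were high-score. The bin at the right end held the most intervals, 35, with a median width of 33 bp and 1 high-score interval.

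The window and the right flank thus had nearly equal counts, 623 (Poisson interval 575 to 674) and 605 (558 to 655), with different layouts. The window was 12.8% covered and the right flank 8.04%. In the window the 10 most covered bins held 70.0% of the covered bases, whereas in the right flank they held 44.7%. The left flank was sparse, with 1.33% of its bases covered and 16 of its 50 bins empty, against 5 of the 40 bins of the window outside the stretch and 1 of the 50 of the right flank.

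Coverage stepped down at both edges, as the 20% threshold requires. It was 53.4% in the first bin of the stretch against 7.81% in the bin before it, a step of 45.6 percentage points. At the right edge the last bin had 25.6% against 4.73% in the bin after it, a step of 20.9 points. Toward the right edge bin coverage read 80.8%, 49.9%, 41.9% and 25.6%, and single steps inside the stretch were larger than that at the edge. The last bin includes the empty 9.13 kb at the right end, which lowers its coverage and the step. A gap of 6.03 kb falls mostly in the bin covered for 49.9%. The fall over these bins thus depends in part on where the bins lie. With 50 kb bins the left step was 21.7 points and the right step 27.5, so the order of the steps turned with the bin size.

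Single intervals placed both edges more finely. On the left, a gap of 8.58 kb without an interval ended at the interval 71938324 to 71939053, which was 730 bp wide with a score of 0.0205. The first interval of at least 1 kb to follow it was the one at 71942455 to 71946533. On the right, the last interval ran from 72130453 to 72130870 with a score of 0.0176, and the next 15.6 kb were empty. The right end of the stretch was thus reached 9.13 kb before the bin ended.

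Between these points no gap was longer than 7.37 kb. Joining intervals no more than 8 kb apart, a distance chosen after the gaps had been seen, gave a single region of 193 kb from 71938324 to 72130870. It contained 275 intervals and was 47.4% covered. Across the autosomes 18 joined regions were at least as long, this region included. It ranked the second of these by coverage, after the region at 30578256 to 31060901 of chromosome 17 with 56.6%. The other 16 were between 10.8% and 39.9% covered. That rank holds for 8 kb alone. With joining within 4 or 6 kb the largest region in the stretch was 85.6 kb, and 10 and 12 autosomal regions, this one included, were at least as long and as covered. With 10 kb it was 212 kb, and 4 were.

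Inside, the longest gap lay at 72023972 to 72031336 and the next, of 6.03 kb, at 72079126 to 72085150. The first of these fell in the bin that was 26.3% covered. The second lay directly after the most covered part of the stretch. In the window as a whole the 3 longest gaps were outside the stretch, at 51.3 kb (72188900 to 72240225), 39.5 kb (71795619 to 71835162) and 36.7 kb (from the left end of the window to 71536661). Of 200 bins of 1 kb in the stretch, 36 were empty, 16 were covered completely and 93 were covered for at least 50%.

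**Figure D2:**
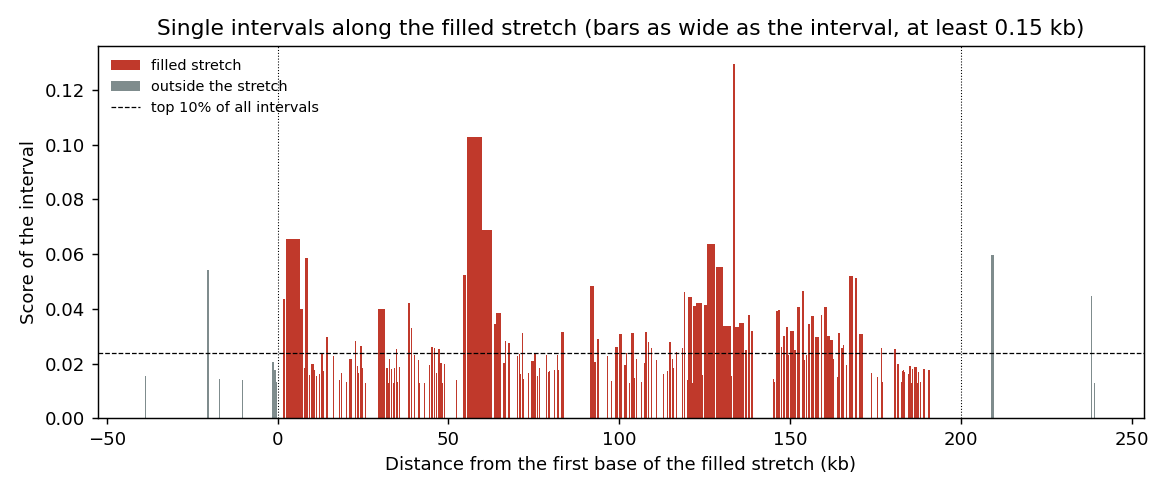
Score of each interval by distance in kb from the first base of the filled stretch, with 40 kb on either side, each bar as wide as its interval and at least 0.15 kb so that narrow intervals show. Tall and wide bars gather near 5, 55 to 65 and 120 to 140 kb, and low bars fill the ground between them, while few intervals lie outside the dotted ends.

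The covered ground was gathered in blocks. With intervals joined within 500 bp, the stretch comprised 51 blocks, 9 of them a single interval. The median block was 1182 bp wide. The 12 blocks of at least 3 kb made up 42.5% of the stretch's length. The widest was 19.3 kb, at 72059797 to 72079125, with 20 intervals that covered 84.0% of it. Next came blocks of 10.9 kb (71994355 to 72005268), 9.76 kb (72085151 to 72094913), 7.71 kb (71941633 to 71949341) and 7.57 kb (72095418 to 72102987). Of these 5 blocks 3 lay between 72059797 and 72102987, and none lay to the right of them.

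Scores are the authors' deposited values per interval, on a scale not stated in the labels or the list, and they served to rank intervals within the list. The median score of the stretch was 0.0172 (interquartile range 0.0134 to 0.0253), against 0.0134 (0.0130 to 0.0153) in the rest of the window, 0.0134 in the left flank and 0.0138 in the right flank. Over all autosomes the median was 0.0136, and the lowest score in the list was 0.0129. The lower quartile of the stretch was thus close to the medians outside it.

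High-score intervals made up 27.3% of the stretch, 74 of 271 (Clopper-Pearson 95% interval 22.1% to 33.0%). The share was 9.94% (7.02% to 13.6%) in the rest of the window, 8.22% (4.32% to 13.9%) in the left flank and 13.2% (10.6% to 16.2%) in the right flank. By the definition of the class the whole list has 10%. Among intervals at least 200 bp wide the share was 58.3% in the stretch, 74 of 127 (49.2% to 67.0%), against 49.3% of the 69999 in the list, so the contrast was smaller among wide intervals. Neighbouring intervals come from 1 smoothed density and are not independent, so these confidence limits cover counting error only. The scores just below and just above the class limit of 0.0237 in the stretch were 0.0236 and 0.0238.

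High-score intervals were not spread evenly within the stretch. Bins held between 1 and 13 of them, and the 2 bins with 13 adjoined each other, from 72060001 to 72100000. The bin to the left of that pair and the bin to its right held 10 each. The 5 bins on the left side of the stretch held 4 to 7 each.

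A site of 648 bp at 72073279 to 72073926 had the highest score in the stretch, 0.130, or 9.50 times the median of the list. Only 243 intervals of the whole list scored higher, and 14 of those were on chromosome 8. It was narrow beside the intervals that followed it in score. The second, at 71995576 to 71999721, scored 0.103 and was the widest of the stretch with 4146 bp. The third, at 71999798 to 72002713, lay directly beside it, scored 0.0690 and was 2916 bp wide. The fourth, at 71942455 to 71946533 near the left edge, scored 0.0654 over 4079 bp. The next, at 72065839 to 72068131, scored 0.0638 over 2293 bp.

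The top 5 by width were nearly the same intervals. The 4 intervals that followed the highest in score were the 4 widest, and the remaining one of the widest 5, at 72070450 to 72072735, had 2286 bp and a score of 0.0338. In all, 13 intervals of the stretch, 4.80%, were in the top 1% of the list by score, and the whole window held 24. By definition 1% of the list was in that class.

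The strongest intervals outside the stretch were at most 1067 bp wide. In the rest of the window the 3 highest scored 0.0733 (72240708 to 72241288, 581 bp), 0.0691 (72298366 to 72299185, 820 bp) and 0.0596 (72148941 to 72149859, 919 bp). In the right flank the highest was 0.0721, at 73421184 to 73422245, and the next were 0.0653 (72736102 to 72737168) and 0.0615 (73389206 to 73389993). In the left flank the highest was 0.0420, at 70944264 to 70944877, and the next were 0.0397 (70510467 to 70510751) and 0.0374 (71317259 to 71317973). The best site of the rest of the window and that of the right flank thus scored between the second and the third interval of the stretch, and each was narrower than both.

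The members of the stretch were wider than the intervals around it. In the stretch the median was 171 bp (interquartile range 18 to 420 bp), against 24.5 bp in the rest of the window, 25 bp in the left flank and 49 bp in the right flank. Of the 271 intervals, 17, or 6.27%, were at least 1 kb wide, against 3 of 352 in the rest of the window and 4 of 605 in the right flank. The widest interval of the left flank was 715 bp. In the whole list 0.431% of intervals were at least 1 kb wide. Those 17 intervals held 36.1% of the bases covered by the members of the stretch.

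Narrow intervals made up a smaller share in the stretch, although they were denser along it. There were 53 of at most 10 bp in its 200 kb. The other 800 kb of the window held 121, the left flank of 1 Mb 54 and the right flank of 1 Mb 186. Such intervals made up 19.6% of the stretch's members, 53 of 271. The share was 34.4% in the rest of the window, 37.0% in the left flank and 30.7% in the right flank. In the whole list they made up 30.8%. Neighbours in the stretch lay a median of 175 bp apart, against 386 bp in the left flank and 156 bp in the right flank. Gaps of at most 20 bp made up 28.1% of the gaps in the stretch, against 37.9% and 34.1% in the left and right flanks.

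Set beside autosomal intervals of like width, the members of the stretch had similar median scores in most classes, and a higher one at 51 to 200 bp. In the class of 201 to 500 bp, the largest with 73 members, the median score was 0.0228 in the stretch and 0.0224 elsewhere on the autosomes. At 501 to 1000 bp it was 0.0318 for 36 members and 0.0321 elsewhere, and at 1001 to 2000 bp it was 0.0423 for 11 members and 0.0402 elsewhere. The ratio of the medians was between 0.991 and 1.05 in these 3 classes. It was highest at 51 to 200 bp, at 1.08, with 0.0162 for 48 members and 0.0149 elsewhere. That stretch median lay just above the 75th percentile of the other autosomal intervals, 0.0161, and 8 of the 48 lay below their median. At 11 to 50 bp 15 of 44 members lay below the median of the others. The counts were 27 of 53 at 1 to 10 bp, 35 of 73 at 201 to 500 bp and 20 of 36 at 501 to 1000 bp.

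The mix of widths differed more than the scores at a given width. Members of 501 to 1000 bp made up 13.3% of the stretch against 2.82% of other autosomal intervals, and members over 2000 bp made up 2.21% against 0.0668%. Score and width rise together in output of this program, so the high scores of the stretch and its wide intervals are not separate observations.

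**Figure D3:**
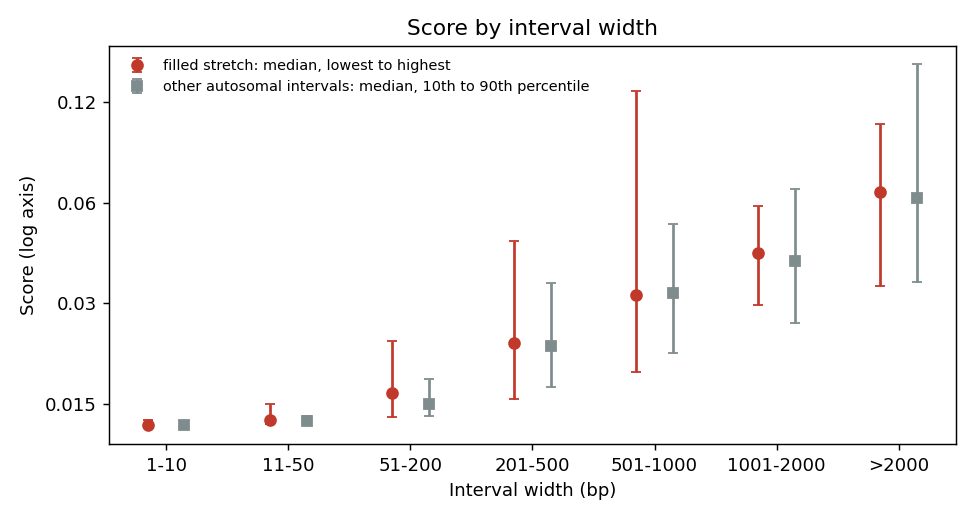
Score (log axis) by class of interval width for the filled stretch (circles: median, bars from lowest to highest) and for all other autosomal intervals (squares: median, bars from the 10th to the 90th percentile). As a ratio, the medians differ most at 51 to 200 bp, where the stretch has 0.0162 and the other intervals 0.0149, or 1.08 times. The stretch median there is just above the 75th percentile of the other intervals, 0.0161.

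Of autosomal stretches with at least 10 consecutive bins of 20 kb that were each at least 20% covered, 7 were found, and the described stretch had exactly the minimum of 10 bins. With bins at least 30% covered its longest run was 80 kb, short of that minimum. It was the least covered of the 7 by mean, with 44.9% against 46.4% to 86.7% in the others. By intervals per Mb it ranked the fourth, and the others had 320 to 2779 per Mb. The 7 stretches held 109 of the 835 autosomal bins past the threshold, and 380 of the 515 runs of such bins were a single bin.

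Over the full length of each stretch, the described one had 370 high-score intervals per Mb, against 170 to 363 in the other 6. The 363 was that of the stretch at 145540001 to 145780000 of chromosome 4, which is 240 kb long. A 200 kb window inside it, at 145580001 to 145780000, held 80 high-score intervals, against 74 in the described stretch. The order thus depends on the length taken. The high-score share of the described stretch, 27.3% (22.1% to 33.0%), was the second after 53.1% in the stretch at 19840001 to 20040000 of chromosome 8. The third, 24.8% (20.5% to 29.5%) at 84940001 of chromosome 1, had overlapping limits. The stretch at 30580001 to 31060000 of chromosome 17 had the lowest, 8.55%. The intervals that filled these places differed in width. The chromosome 17 stretch held 1334 intervals, at a median of 43.5 bp, whereas the other chromosome 8 stretch held 64, at a median of 1098 bp. The described stretch, with a median of 171 bp, lay between them and was closest to the stretches at 87340001 of chromosome 1 (156 bp) and 145540001 of chromosome 4 (151 bp).

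The surroundings of the 7 stretches differed as well. For the described stretch the 10 bins to the left had a median coverage of 1.60% and reached at most 7.81%, and the 10 bins to the right had 3.60% and reached at most 16.3%. Around the chromosome 4 stretches, by comparison, the medians were 14.4% to 25.8% and single bins reached 39.8% to 57.9%, so those were parts of wider dense areas. Around the stretch of chromosome 17 and that of chromosome 1 from 87340001, none of the 10 bins on either side passed 8.30%.

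**Figure D4:**
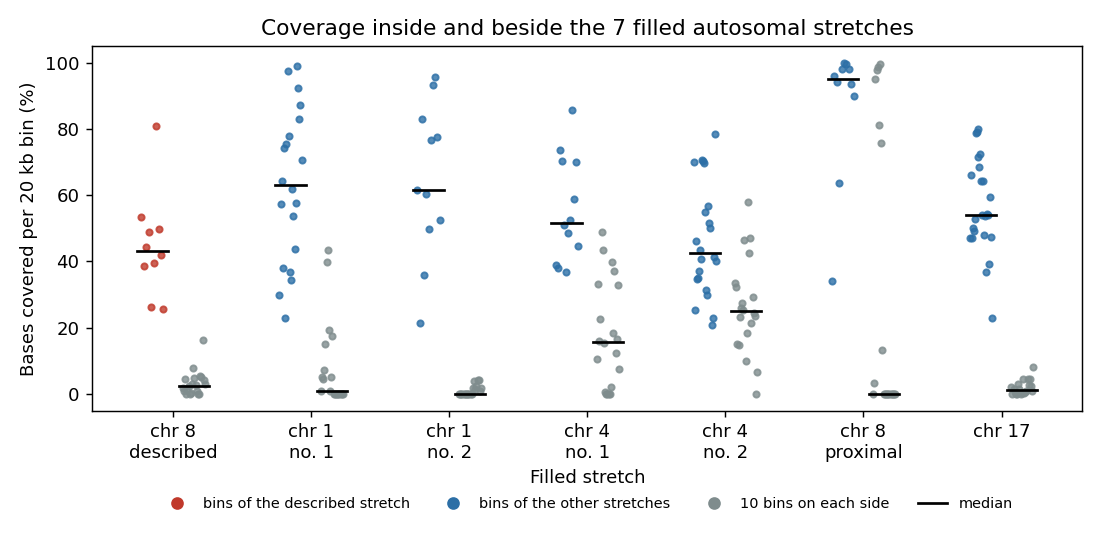
Percent of bases covered in each 20 kb bin inside the 7 filled autosomal stretches and in the 10 bins on each side (grey), with medians as black lines. The described stretch, on the left, has a median bin of 43.2%, and its outside bins reach at most 16.3%.

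Among windows of 1 Mb the rank of the place depended on the setting. On a grid that started at the window, 2473 autosomal windows were counted, with a median of 92 intervals. They include windows near the chromosome starts that hold no interval. With 623 intervals, 6.77 times that median, the window ranked the 32nd. The rank by count was 7 among intervals in the top 10% by score, 9 among those at least 200 bp wide, 17 on a grid of whole Mb, 21 from the median score upward and 126 after joining within 500 bp. Among all intervals it ranked the 11th by coverage, with 12.8% against a median of 0.969%, and the 7th by high-score intervals, with 109. On chromosome 8 it was the 7th of 132 windows by intervals and the 2nd by coverage.

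The 10 densest windows held 845 to 1471 intervals. Their coverage was 8.18% to 29.5%, and 4.76% to 18.2% of their intervals were high-score, against 12.8% and 17.5% in the described window. Of the 31 windows with more intervals, 8 had a higher coverage and 1 had a higher high-score share, the window from 145500001 of chromosome 4. The 10 most covered bins held 42.4% to 74.7% of the covered bases in these 31 windows with a median of 51.6%, and in 2 of them the share was above the 70.0% of the described window. Only 4 of the 31 held a run of at least 10 bins past the 20% threshold.

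**Figure D5:**
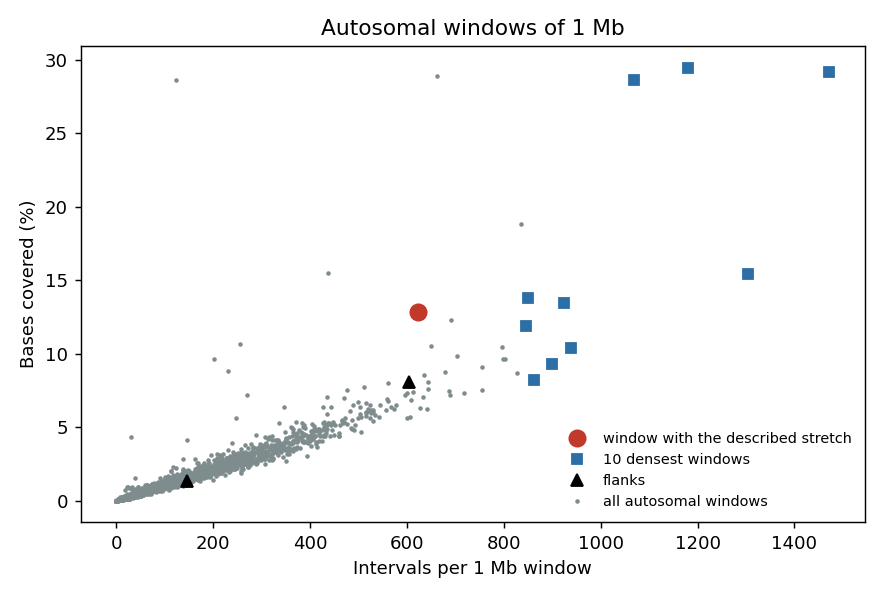
Percent of bases covered against number of intervals for autosomal windows of 1 Mb. The window with the described stretch (circle, 623 intervals, 12.8% covered) lies above the main band of windows, the right flank (605 intervals, 8.04%) lies within it, and the 10 densest windows (squares) extend to 1471 intervals.

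On the scale of the stretch itself the rank was higher. Of 12357 autosomal tiles of 200 kb on a grid that starts at the stretch, it was the 21st by intervals, the 10th by coverage and the 1st by high-score intervals, with 74 against a median of 1 per tile. That grid was laid to fit the stretch and not the other places. With 200 kb windows moved in steps of 20 kb, 3 windows elsewhere held at least 74 high-score intervals, each on chromosome 4. The one with the most held 80 (145580001 to 145780000). Windows at neighbouring steps overlap, and whether these 3 are separate places was not examined.

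Genes, GC content, repeated sequence and copy number at these positions were not analysed here, because no sequence or gene annotation of mm9 was used. Their part in the filling of the stretch was not tested.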

How the data were processed

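FAIRE DNA of 2 treatments and input DNA were sequenced, 3 samples in all, with 1 sample in each group. Reads were aligned with Bowtie to build mm9, per the submitters' processing notes, which give no version. The deposited list has 5 columns: chromosome, start, end, a name and a score per interval. The authors made it with F-Seq, per the name of the list. Of its settings, the samples that entered it and any use of the input, nothing was given in the sources used here. The score is the authors' deposited value. Coordinates are printed counted from 1.

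Intervals were assigned by midpoint and coverage was counted in bases, with scipy 1.17.1, numpy 2.4.6 and pandas 2.3.3 in Python 3.11.15. No p-value was computed. The scan and the joining were tested on simulated intervals. The members, comparison places and settings were chosen with earlier results of these data known. Regions named were, by rule, the 5 highest-scoring and 5 widest intervals of the stretch, the 3 highest of the flanks, the 3 longest gaps of the window, extreme bins, edge intervals, the 10 densest windows and the other filled stretches. The 3 highest of the rest of the window, blocks, gaps inside the stretch and joined regions were added after values were seen. Alternatives changed score threshold, width, joining, bin size, bin position and coverage threshold.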

Additional observations from a re-analysis of the deposited data

How the results depend on the processing

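Of 40 alternative values for 8 results, 24 stayed and 16 moved. To stay was to lie within 1.5 times of the reported value, or within its 95% interval for the high-score share. The window held 339 intervals with scores from the median upward, 109 in the top 10%, 190 with a width of at least 200 bp and 174 after joining within 500 bp, against 623. Fewer intervals enter under each by construction. Its rank was 21, 7, 9 and 126 under the same settings and 17 on whole Mb, against 32. Its coverage was 8.11% in the top 10%, against 12.8%. The high-score share of the stretch was 16.6% for the top 5% and 54.2% for the top 25%, against 27.3%. By definition the whole list has 5% and 25% in these classes, so both shares change with the class by construction. For intervals of at least 200 bp the share was 58.3%, and 49.3% of such intervals in the whole list are high-score. The length of the stretch was 80 kb with 10 kb bins and with bins at least 30% covered, against 200 kb. The run taken under both settings was the first of that length and ended at 72020000, although a run as long lay to its right. The next bin fell below the threshold. The right step under these settings, 22.15 and 22.4 points, was therefore taken at 72020000, inside the stretch. Both values count among those that stayed, although they do not measure the right edge. The left step was 21.7 points with 50 kb bins, against 45.6, since those bins begin inside the stretch, and it was then below the right step of 27.5. Joining within 8 kb was chosen after seeing the data and gave 193 kb. No paired analysis was possible because the list separates no samples, and leaving out a replicate was not possible for the same reason. Since the depth is unknown, the lack of an interval was not read as a lack of signal.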
